A study of Mus musculus with 24 samples.

Results

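The 39 genes described here encode the proteins that prepare, start and copy DNA in S phase, together with the cyclin E and E2F genes that control entry into it. They were taken as the rows of the deposited count files whose Ensembl identifiers map to a list of 39 mouse symbols, 39 of the 52636 genes in each file. All 39 were found, and all 39 passed the filter on low counts, so no listed gene was left out for its level. The list itself was chosen with earlier results of these data known. The filter asks for a minimum count of 10 in enough libraries and a total of 15, and left 14681 genes. The RNA came from macrophages that were grown from mouse bone marrow in culture with the growth factor M-CSF. The 24 libraries form 8 groups of 3. R837, or imiquimod, is a synthetic agonist of Toll-like receptor 7. The groups given R837 for 8 h were TBK1-cKD IKKe knockout, TBK1-cKD control, TBK1-WT IKKe knockout and TBK1-WT control, and the same 4 genotypes were left untreated. TBK1 and IKKe are kinases related to the IkB kinases. The series record calls TBK1-cKD a conditional knockout, and the labels do not give the allele, the Cre or promoter that acts on it, or the altered exons of either gene. The protocol text on every record names wild-type C57BL/6N animals, although the genotype labels differ between groups. Each group stands for 3 individual mice by that text, and which libraries of different groups share an animal is not given.

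Before S phase, the origin recognition complex (ORC), Cdc6 and Cdt1 load the MCM2-7 ring onto DNA, a step called licensing. Cdc45 and the GINS proteins then turn the ring into the active helicase, primase and polymerases copy the strands, and the clamp PCNA and its loader RFC hold the polymerases in place. Cyclin E with its kinase drives this entry into S phase, and E2F transcription factors switch on most of these genes as cells pass from G1 into S. M-CSF keeps bone marrow-derived macrophages dividing in culture, and activation through Toll-like receptors is known to slow their division.

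Gene counts summed to between 19727746 and 41323219 reads per library. Levels are given in CPM, counts scaled to library depth with TMM factors, and log2 changes are from edgeR's quasi-likelihood fit of all 24 libraries. Changes carry their standard error and levels the SD of 3 replicates. Adjusted p is by Benjamini-Hochberg over 14681 genes, and a gene is called where it is under 0.05. Several features of the libraries bear on the results. First, RNA that stays in the nucleus (Malat1, Neat1 and Xist, averaged) was high (over 7 log2 CPM) in 14 libraries and low in 10. All untreated libraries were high, and after R837 the high ones were TBK1-WT control replicate 1 and replicate 3 of TBK1-cKD IKKe knockout, so this level moves with R837. Second, R837 replicate 2 of TBK1-cKD control was the shallowest library, and 12 of the 39 members lay over 0.5 log2 from the mean of its replicates 1 and 3, whereas 2 members differed by that much between replicates 1 and 3.

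In addition, the targeted genes did not fall in every group named for them. Untreated Ikbke, the gene of IKKe, stood at 80.6, 76.9 and 81.3 CPM under the label TBK1-cKD IKKe knockout, 71.5, 73.8 and 76.1 CPM in TBK1-cKD control, 35.9, 34.5 and 35.0 CPM in TBK1-WT IKKe knockout and 59.0, 59.9 and 59.6 CPM in TBK1-WT control. It was thus not lower in the first of these groups than in either control group. Since the altered exons are not given, these counts cannot tell whether the label is right. After R837 Ikbke stood at 77.7, 82.7 and 259 CPM under the label TBK1-cKD IKKe knockout, 239.5, 239 and 248 CPM in TBK1-cKD control, 77.0, 70.5 and 79.3 CPM in TBK1-WT IKKe knockout and 406, 220.1 and 233 CPM in TBK1-WT control. Replicate 3 labelled TBK1-cKD IKKe knockout had the Ikbke level of TBK1-cKD control there, and replicates 1 and 2 that of TBK1-WT IKKe knockout. That replicate 3 and replicate 1 of TBK1-WT control are the R837 libraries of high nuclear RNA level, and each had the highest Ikbke of its group. The part of the nuclear RNA level in these Ikbke values was not tested. Mean untreated Tbk1 was 89.0 CPM under the label TBK1-cKD IKKe knockout, 74.6 CPM in TBK1-cKD control, 102 CPM in TBK1-WT IKKe knockout and 102 CPM in TBK1-WT control. After R837 mean Tbk1 was 123 CPM under the label TBK1-cKD IKKe knockout, 101 CPM in TBK1-cKD control, 120.03 CPM in TBK1-WT IKKe knockout and 130.04 CPM in TBK1-WT control. Against TBK1-WT control it fell in TBK1-cKD control (-0.36 ± 0.075 log2, adjusted p = 0.0037) and was not called under the label TBK1-cKD IKKe knockout (-0.08 ± 0.074 log2, adjusted p = 0.445). These RNA levels do not measure the proteins, and the libraries that carry the label TBK1-cKD IKKe knockout are called cKD/IKKe-labelled below, by their label alone. All 12 macrophage markers were above 1 RPKM (reads scaled to gene length and library depth) in every group. Of the markers of other cells, the red cell genes Hba-a1 and Hbb-bs and the T cell gene Cd3e were at or near 0, but not all were. The lymphocyte list, nearly all Il7r and Ighm, summed to between 75.0 and 92.9 RPKM in untreated libraries. The neutrophil and precursor list reached 184.6 to 339 RPKM in the cKD/IKKe-labelled R837 libraries. The erythroid and megakaryocyte list summed to between 145 and 293 RPKM, nearly all of it Pf4.

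The 39 genes were expressed at very different levels. Of the MCM ring, Mcm6, Mcm3 and Mcm5 were near the top of the untreated order, while Mcm7 stood at place 21 to 23. Per length, in the authors' RPKM, Mcm6 was the highest member in every untreated group, at 42.8 RPKM in the cKD/IKKe-labelled libraries, 47.3 in TBK1-cKD control, 50.5 in TBK1-WT IKKe knockout and 55.6 in TBK1-WT control. Rrm1, the large subunit of ribonucleotide reductase, came next in each, at 34.3 RPKM in the cKD/IKKe-labelled libraries, 41.7 in TBK1-cKD control, 43.9 in TBK1-WT IKKe knockout and 49.6 in TBK1-WT control, followed by Mcm3 and Mcm5 in either order. The lowest members untreated were the licensing genes Orc1 and Cdc6. Orc1 was at 1.45 RPKM in the cKD/IKKe-labelled libraries, 1.46 in TBK1-cKD control, 1.64 in TBK1-WT IKKe knockout and 1.82 in TBK1-WT control, and Cdc6 was between 1.61 and 2.16 RPKM. After R837 the order changed. E2f1 became the highest member in all 4 genotypes, at 14.7 RPKM in the cKD/IKKe-labelled libraries, 14.6 in TBK1-cKD control, 14.5 in TBK1-WT IKKe knockout and 13.9 in TBK1-WT control. Orc1, Cdc6 and Ung were then among the 4 lowest in each. The 6 subunits of the MCM ring, which assemble in equal numbers, did not have equal RNA levels. Untreated, the highest of the 6, Mcm6, was 4.90 to 5.30 times the lowest, Mcm7, over the 4 genotypes. After R837 Mcm3 was the highest and Mcm7 the lowest, and the ratio was 6.37 to 7.03.

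R837 lowered every member in every genotype. All 39 fell in the cKD/IKKe-labelled libraries, all 39 in TBK1-cKD control, all 39 in TBK1-WT IKKe knockout and all 39 in TBK1-WT control, and none rose (0 in each). Over all genes tested, 34.8% fell in the cKD/IKKe-labelled libraries, 37.5% in TBK1-cKD control, 37.8% in TBK1-WT IKKe knockout and 32% in TBK1-WT control, and 31.6% rose in the cKD/IKKe-labelled libraries, 31.6% in TBK1-cKD control, 32.4% in TBK1-WT IKKe knockout and 30.6% in TBK1-WT control. The median log2 change of the 39 was -2.24 in the cKD/IKKe-labelled libraries, -2.11 in TBK1-cKD control, -2.14 in TBK1-WT IKKe knockout and -1.92 in TBK1-WT control, while the median over all genes lay between -0.08 and -0.04. In all 4 genotypes the 3 R837 libraries were below the 3 untreated ones for each of the 39 genes, which held for 37% of all genes in the cKD/IKKe-labelled libraries, 39.9% in TBK1-cKD control, 43.1% in TBK1-WT IKKe knockout and 34.9% in TBK1-WT control. Summed over the 39 genes, the level after R837 was 449.6 ± 8.13 CPM in the cKD/IKKe-labelled libraries, 519.8 ± 3.30 in TBK1-cKD control, 549 ± 22.4 in TBK1-WT IKKe knockout and 582 ± 7.46 in TBK1-WT control. Untreated, the sums were 1702 ± 45.2 CPM in the cKD/IKKe-labelled libraries, 1857 ± 115 in TBK1-cKD control, 1920.1 ± 123 in TBK1-WT IKKe knockout and 2048 ± 22.8 in TBK1-WT control. In bulk RNA, fewer dividing cells and less RNA per dividing cell cannot be told apart. The level of nuclear RNA moved with R837, and so did the summed progenitor markers (1.35 to 1.94 RPKM after R837, against 11.8 to 12.4 RPKM untreated in TBK1-WT control, with Sox4 alone at 0.275 and 8.79 RPKM). Only 1 R837 library of high nuclear RNA level stands in each of the cKD/IKKe-labelled and TBK1-WT control groups. Set against the 3 untreated libraries of its group, it was lower on the median member by 2.25 log2 in the cKD/IKKe-labelled group and 1.79 log2 in TBK1-WT control. Calls in that fit take the spread from the replicates of untreated groups and assume that the lone library varies like them, so they are not counted here. The lymphocyte list, which is nearly all Il7r and Ighm here, moved in the same direction (16.0 to 17.2 RPKM after R837, against 81.7 to 92.9 RPKM untreated in TBK1-WT control), and the neutrophil and precursor list the other way (34.7 to 39.5 RPKM, against 8.18 to 11.4 RPKM). The part of these markers in the result was not tested.

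**Figure D1:**
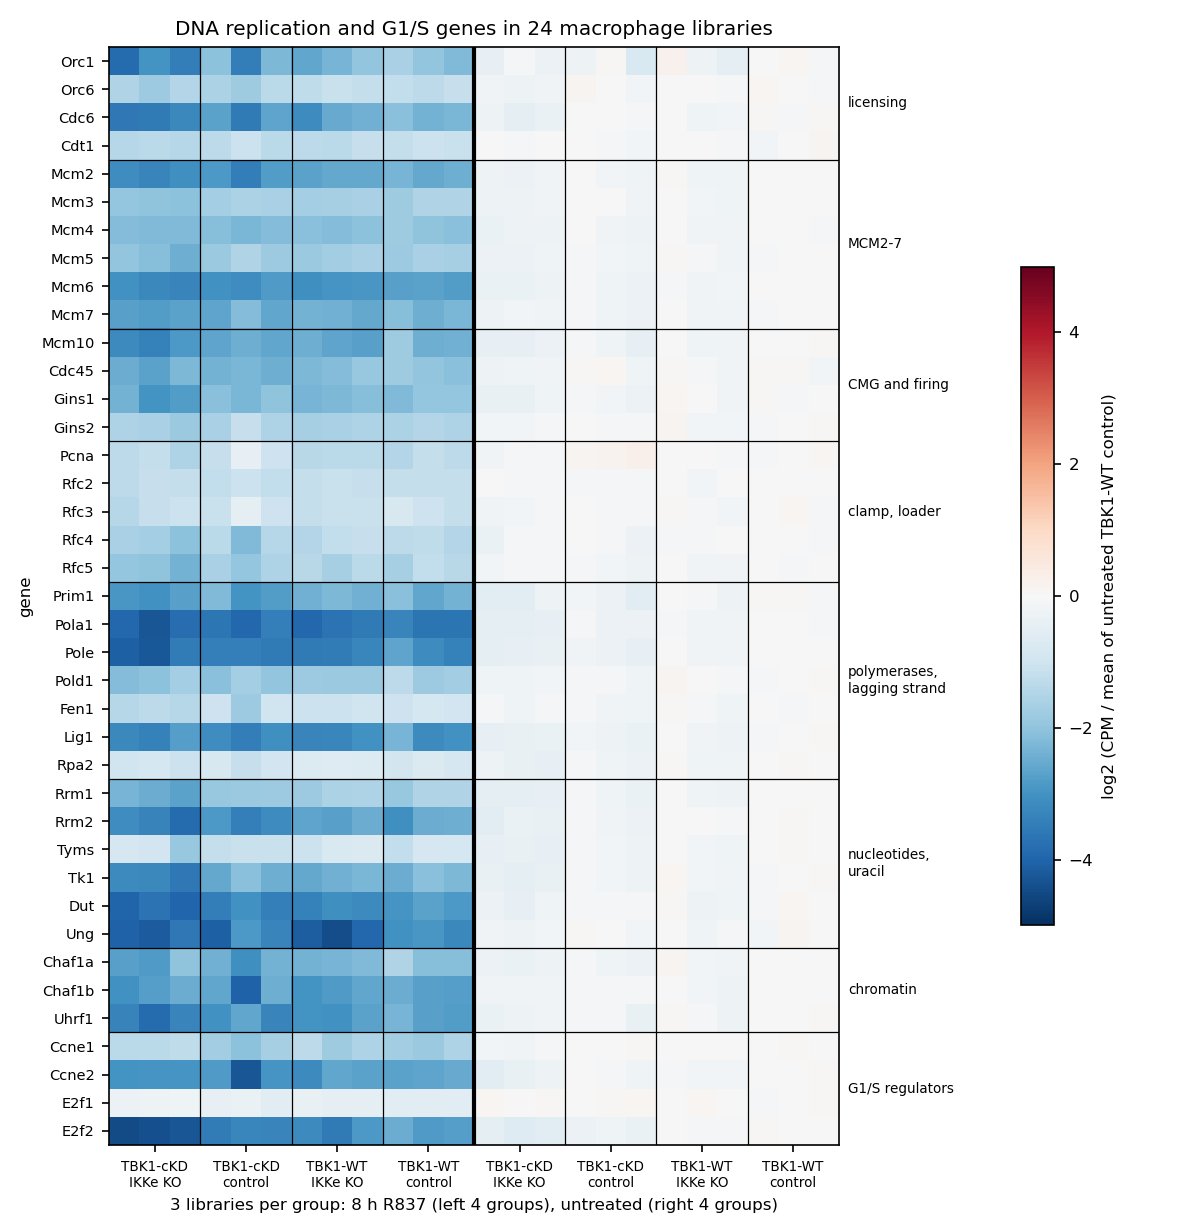
Level of each of the 39 genes (rows, by role) in each of the 24 libraries (columns), as log2 of its CPM over the mean of untreated TBK1-WT control; blue is lower. The R837 libraries on the left are blue in every row, palest for E2f1 and among the deepest for Pola1, Ung and E2f2, and the untreated libraries on the right stay near 0.

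The letters of E2F sites stood in the promoter windows of 39.4% of the 33 members with a promoter entry and of 2.605% of all genes with one. RefSeq promoter windows (build GRCm38.p6, 250 bases before to 50 after the annotated start) were matched for 33 of the 39 genes, with 39 windows, since some genes have several starts. They were searched on both strands for 4 spellings of the E2F site, TTTCCCGC, TTTGGCGC, TTTCGCGC and TTTGCCGC. A match was found for 13 of the 33 genes, or in 33.3% of their windows. Over all 32851 windows the share was 2.27%, and it was 2.45% over windows within the members' range of GC content (38.7 to 77.3%). That range keeps 29567 windows, with a median GC content of 53.7% against 58.3% in the members' windows, so GC content was not matched. The 13 genes were Orc1, Cdc6, Cdt1, Mcm3, Mcm5, Mcm6, Mcm7, Rfc3, Pola1, Pold1, Lig1, Uhrf1 and E2f2. Of a wider list of other replication genes 16 of 41 matched genes held a match, of a list of mitosis genes 1 of 26, and of a list of G1 control genes 1 of 14. A match is a description of letters and not a binding site, and a window without one says nothing about the factor. Some RefSeq starts lie inside the gene of the GENCODE annotation, so a window need not cover the letters before the GENCODE start.

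The windows below run 5′ to 3′ over the 170 bases before the RefSeq start, with the matched letters in capitals. They are shown for the licensing genes Orc1 and Cdc6, for 3 subunits of the MCM ring and for Pola1, which fell most in TBK1-WT control. E2f1, which fell least, is shown too and has no match in its window. That E2f1 window lies inside the gene of the GENCODE annotation (chr2:154559407-154569892), so the letters before the GENCODE start were not searched. In Mcm5 and in the first run of Mcm6, matches on opposite strands overlap and form 1 longer run of capitals. Mcm7 has a second annotated start whose window holds no match. The windows of Cdc6 and Mcm7 also lie inside these genes as GENCODE places them, so the letters before their GENCODE starts were not searched.
Orc1, chr4:108579284-108579453, plus strand: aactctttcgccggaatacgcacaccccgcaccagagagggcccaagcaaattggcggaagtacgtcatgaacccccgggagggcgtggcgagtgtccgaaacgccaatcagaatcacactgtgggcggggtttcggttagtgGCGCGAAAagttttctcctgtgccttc
Cdc6, chr11:98907981-98908150, plus strand: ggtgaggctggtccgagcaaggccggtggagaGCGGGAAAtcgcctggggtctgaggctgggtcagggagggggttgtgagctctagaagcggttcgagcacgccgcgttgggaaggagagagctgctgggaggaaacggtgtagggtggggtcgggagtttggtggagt
Mcm5, chr8:75109339-75109508, plus strand: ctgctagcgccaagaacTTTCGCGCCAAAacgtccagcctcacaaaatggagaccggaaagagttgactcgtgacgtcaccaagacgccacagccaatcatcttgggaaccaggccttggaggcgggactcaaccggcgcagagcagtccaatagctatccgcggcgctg
Mcm6, chr1:128359706-128359875, minus strand: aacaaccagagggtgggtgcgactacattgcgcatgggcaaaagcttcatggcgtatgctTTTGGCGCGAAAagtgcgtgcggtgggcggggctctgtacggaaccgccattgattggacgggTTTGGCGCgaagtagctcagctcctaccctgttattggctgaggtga
Mcm7, chr5:138171884-138172053, minus strand: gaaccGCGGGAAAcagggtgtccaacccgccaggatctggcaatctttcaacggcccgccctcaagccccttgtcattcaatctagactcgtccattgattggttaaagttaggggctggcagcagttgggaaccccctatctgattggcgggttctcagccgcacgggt
Pola1, chrX:93632156-93632325, minus strand: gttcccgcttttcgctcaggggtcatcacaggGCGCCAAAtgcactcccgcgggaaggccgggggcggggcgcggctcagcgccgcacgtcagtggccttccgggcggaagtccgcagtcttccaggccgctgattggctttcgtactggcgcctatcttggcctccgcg
E2f1, chr2:154569427-154569596, minus strand: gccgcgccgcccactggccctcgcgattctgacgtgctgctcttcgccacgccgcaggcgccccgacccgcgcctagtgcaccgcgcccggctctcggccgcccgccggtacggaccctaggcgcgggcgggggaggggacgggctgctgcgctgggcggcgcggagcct

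Genes with and without a match all fell, over overlapping ranges. The 13 genes with a match had a median log2 change of -2.72 in the cKD/IKKe-labelled libraries, -2.29 in TBK1-cKD control, -2.32 in TBK1-WT IKKe knockout and -2.22 in TBK1-WT control. The 20 genes with a window and no match had medians of -2.11 in the cKD/IKKe-labelled libraries, -2.02 in TBK1-cKD control, -1.77 in TBK1-WT IKKe knockout and -1.79 in TBK1-WT control. In TBK1-WT control the changes of those with a match ran from -3.51 to -0.99 and of those without from -3.04 to -0.54. The -0.54 is that of E2f1, whose window lies inside the gene of the GENCODE annotation. No test was made of this difference.

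Gene positions below are those of the GENCODE mouse annotation, on GRCm38. Among the licensing genes, Cdc6 fell most in TBK1-WT control and Cdt1 least. Cdc6 (chr11:98907801-98923940), which with ORC recruits the MCM ring, had 2.42, 2.00 and 2.11 CPM after R837, against 10.7, 9.48 and 10.6 CPM untreated. Its fall was -2.22 ± 0.16 log2 (adjusted p = 9.31e-11), with no overlap between the libraries, and it was -3.07, -2.81 and -2.53 in the cKD/IKKe-labelled libraries, TBK1-cKD control and TBK1-WT IKKe knockout. Cdt1, its partner in loading, had 30.6, 33.5 and 32.7 CPM after R837, against 64.4, 70.4 and 77.0 CPM untreated, a change of -1.13 ± 0.076 log2 (adjusted p = 4.06e-11). Orc6 and Orc1, subunits of the origin recognition complex, changed by -1.24 and -1.89 log2 in TBK1-WT control. Orc1 reached -3.13 ± 0.30 log2 in the cKD/IKKe-labelled libraries, where its 3 libraries held only 10 to 20 reads each, so its level there is known less well than that of other members.

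All 6 genes of the MCM ring, the core of the replicative helicase, fell in each genotype. Mcm6 (chr1:128331590-128359664) fell most in TBK1-WT control. It stood at 29.4, 25.7 and 24.5 CPM in cKD/IKKe-labelled R837 libraries, 29.3, 28.3 and 34.3 in TBK1-cKD control, 28.7, 31.1 and 32.3 in TBK1-WT IKKe knockout and 36.8, 38.0 and 34.6 in TBK1-WT control. Untreated, it stood at 192, 191 and 205 CPM in the cKD/IKKe-labelled libraries, 227, 211 and 196 in TBK1-cKD control, 232, 215 and 219 in TBK1-WT IKKe knockout and 238, 244 and 241 in TBK1-WT control. The highest R837 library was thus far below the lowest untreated one, and the fall in TBK1-WT control was -2.73 ± 0.080 log2 (adjusted p = 3.48e-17), or 6.62-fold lower. Mcm2 had 17.8, 15.2 and 16.1 CPM after R837, against 87.2, 89.4 and 88.8 CPM untreated in that genotype (-2.43 ± 0.12 log2). Mcm7 had 7.12, 5.72 and 6.41 CPM after R837, against 29.6, 31.4 and 31.6 CPM untreated (-2.26 ± 0.098 log2). Mcm4 had 29.3, 25.1 and 23.5 CPM after R837, against 102, 102 and 97.5 CPM untreated (-1.95 ± 0.083 log2). In each of these the 3 R837 libraries were far below the untreated ones. Mcm5 and Mcm3 fell less. Mcm5 had 40.6, 46.4 and 44.6 CPM after R837, against 137, 144 and 144 CPM untreated (-1.69 ± 0.10 log2). Mcm3 had 36.5, 44.6 and 44.5 CPM after R837, against 126, 128 and 125 CPM untreated (-1.59 ± 0.072 log2). Adjusted p for these 5 subunits ran from 1.62e-14 (Mcm4) to 6.39e-12 (Mcm5).

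The 4 genes that turn the loaded ring into a moving helicase all fell. Mcm10, which helps to fire origins, had 10.4, 6.41 and 6.57 CPM after R837, against 34.8, 34.3 and 36.3 CPM untreated in TBK1-WT control, a change of -2.16 ± 0.15 log2 (adjusted p = 4.27e-11). The highest of its R837 libraries, replicate 1, is also the one of high nuclear RNA level. Cdc45, a part of the active helicase, changed by -1.92 ± 0.12 log2, and the GINS subunit Gins1 by -2.03 ± 0.13. Gins2, another GINS subunit, moved least of the 4, with 10.7, 11.5 and 11.1 CPM after R837, against 31.1, 32.1 and 33.5 CPM untreated (-1.53 ± 0.10 log2, adjusted p = 3.51e-11).

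The sliding clamp and its loader fell least as a group, with a median of -1.22 log2 in the cKD/IKKe-labelled libraries, -1.09 in TBK1-cKD control, -1.25 in TBK1-WT IKKe knockout and -1.33 in TBK1-WT control. Rfc5 had 8.83, 11.9 and 10.6 CPM after R837, against 28.0, 26.7 and 28.3 CPM untreated in TBK1-WT control (-1.41 ± 0.11 log2, adjusted p = 8.33e-10). Rfc3 had 10.8, 9.33 and 8.40 CPM after R837, against 18.8, 20.1 and 18.2 CPM untreated (-0.99 ± 0.12 log2, adjusted p = 5.42e-07). The loader subunits Rfc2 and Rfc4 and the clamp Pcna changed by -1.18, -1.33 and -1.33 log2. Pcna has pseudogene copies in the mouse genome with which its counts may share reads.

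The polymerase and lagging-strand genes had the widest span of any role in TBK1-cKD control and in TBK1-WT control. Pola1 (chrX:93304767-93632155), the catalytic subunit of the polymerase that extends primers, had 5.63, 4.37 and 4.42 CPM after R837, against 56.2, 56.5 and 53.2 CPM untreated in TBK1-WT control. Its change of -3.51 ± 0.12 log2 (adjusted p = 7.92e-16) left 8.76% of the untreated level, and it was -3.55, -3.39 and -3.56 log2 in the cKD/IKKe-labelled libraries, TBK1-cKD control and TBK1-WT IKKe knockout. Its partner in primer synthesis, the primase subunit Prim1, changed by -2.33 ± 0.15 log2. Pole, the catalytic subunit of the leading-strand polymerase, changed by -2.99 ± 0.15 log2, and Lig1, the ligase that joins lagging-strand fragments, by -2.79 ± 0.18. Pold1, the catalytic subunit of the lagging-strand polymerase, fell less, at -1.60 ± 0.12 log2. Fen1, the nuclease that trims the fragments, changed by -0.95 ± 0.13 log2. Rpa2, a subunit of the single-strand binding complex that repair also uses, had 20.6, 23.7 and 21.5 CPM after R837, against 37.8, 39.9 and 38.0 CPM untreated (-0.82 ± 0.090 log2, adjusted p = 9.42e-08), and its libraries did not overlap although its change was the smallest of the 7.

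The genes of nucleotide supply fell far apart from each other. Ung (chr5:114130386-114139323), the uracil glycosylase that removes uracil from DNA, had 1.54, 1.68 and 1.35 CPM after R837, against 11.4, 13.7 and 12.8 CPM untreated in TBK1-WT control, a change of -3.04 ± 0.17 log2 (adjusted p = 2.42e-12). Dut, which breaks down dUTP and so keeps uracil out of DNA, changed by -2.83 ± 0.12 log2. Rrm2, the small subunit of ribonucleotide reductase, changed by -2.65 ± 0.16 log2 and its partner Rrm1 by -1.63 ± 0.10. Tk1, the salvage enzyme for thymidine, changed by -2.27 ± 0.12 log2. Tyms, which makes thymidylate anew, had 5.41, 7.16 and 6.84 CPM after R837, against 12.6, 13.2 and 12.4 CPM untreated (-0.98 ± 0.17 log2, adjusted p = 2.69e-05). Tyms also has a pseudogene copy that may share reads with it. The 2 uracil genes were the members of deepest fall here, and Tyms kept 50.6% of its untreated level.

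Genes that rebuild chromatin behind the fork fell deeply too. Chaf1b, a subunit of the histone chaperone CAF-1, had 4.72, 4.07 and 3.94 CPM after R837, against 26.8, 26.3 and 26.4 CPM untreated in TBK1-WT control (-2.63 ± 0.19 log2, adjusted p = 1.61e-10). Chaf1a, its larger partner, had 16.6, 11.0 and 11.0 CPM after R837, against 46.8, 46.9 and 48.6 CPM untreated (-1.87 ± 0.18 log2, adjusted p = 1.13e-08), with replicate 1, the library of high nuclear RNA level, above the other R837 libraries. Uhrf1, which guides DNA methylation to new strands, changed by -2.58 ± 0.16 log2.

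The 4 regulators of the G1/S step parted from one another. E2f1 (chr2:154559407-154569892), an activator of replication genes, had 50.9, 51.7 and 50.8 CPM after R837, against 70.4, 75.1 and 77.5 CPM untreated in TBK1-WT control, a change of -0.54 ± 0.056 log2 (adjusted p = 3.47e-08). This was the smallest change of any member and left 68.8% of the untreated level. E2f2 (chr4:136172394-136196057), the related activator, had 5.33, 4.21 and 4.46 CPM after R837, against 31.0, 29.4 and 29.7 CPM untreated, a change of -2.68 ± 0.11 log2 (adjusted p = 9.17e-15). Ccne1 and Ccne2 encode the cyclins E1 and E2. Ccne2 had 4.55, 4.70 and 5.05 CPM after R837, against 28.7, 28.6 and 30.0 CPM untreated (-2.61 ± 0.18 log2). Ccne1 had 5.11, 4.67 and 5.85 CPM after R837, against 16.7, 17.6 and 16.6 CPM untreated (-1.71 ± 0.10 log2). In every genotype E2f1 was the member of smallest change, at -0.32 log2 in the cKD/IKKe-labelled libraries, -0.47 in TBK1-cKD control, -0.45 in TBK1-WT IKKe knockout and -0.54 in TBK1-WT control, and its R837 libraries lay below the untreated ones.

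**Figure D2:**
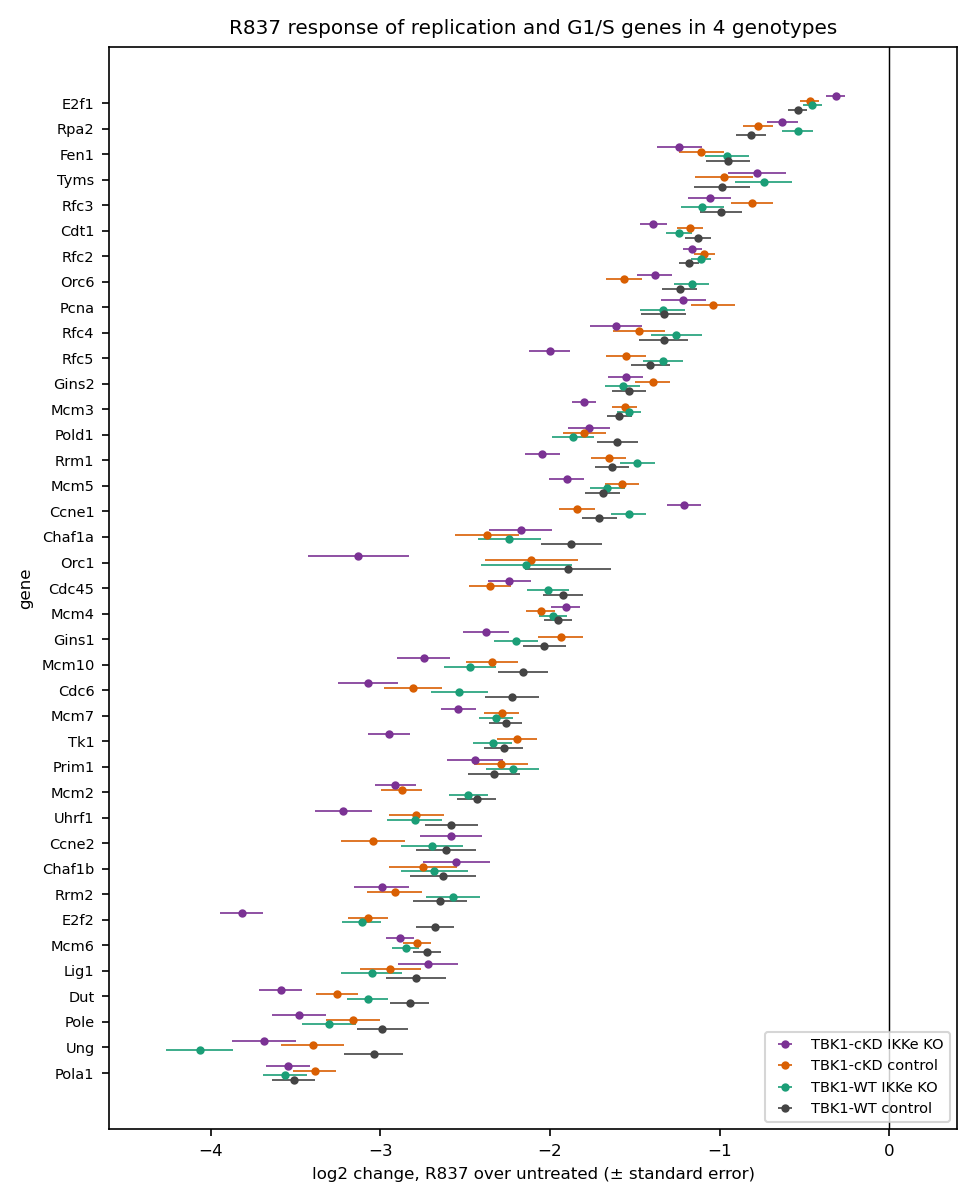
Log2 change of each gene after R837 over untreated in 4 genotypes (points, with the standard error as a bar), ordered by the change in TBK1-WT control. Every point lies below 0, from -0.32 for E2f1 to -4.07 for Ung, and E2f2, Orc1, Cdc6 and Tk1 fall further in the cKD/IKKe-labelled libraries (purple).

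After R837 the members were lower still in the cKD/IKKe-labelled libraries than in TBK1-WT control. Of the 39, 28 fell (all genes: 15.5%) and 2 rose (all genes: 16.7%), with a median log2 change of -0.47. All 4 licensing genes and all 6 genes of the MCM ring fell, as did 5 of 7 polymerase and lagging-strand genes, 5 of 6 genes of nucleotide supply, 3 of 4 helicase and firing genes, 2 of 3 chromatin genes and 2 of 5 clamp and loader genes. The 3 libraries were all below the 3 of TBK1-WT control for 27 members (all genes: 16.8%) and all above for 2 (all genes: 17.5%). The group had the lowest mean of the 4 genotypes for 29 of the 39 genes (all genes: 33.4%), and TBK1-WT control had the highest for 27 (all genes: 24.7%).

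E2f2 differed most. It had 1.36, 1.42 and 1.56 CPM in cKD/IKKe-labelled R837 libraries, 2.70, 3.16 and 3.07 in TBK1-cKD control, 3.31, 2.60 and 4.05 in TBK1-WT IKKe knockout and 5.33, 4.21 and 4.46 in TBK1-WT control. The first group was below all other R837 libraries, at -1.69 ± 0.14 log2 from TBK1-WT control (adjusted p = 2.83e-09, and between 5.07e-24 and 0.000961 in other settings). Rrm1 had 39.05, 34.8 and 30.5 CPM in cKD/IKKe-labelled R837 libraries, 53.0, 53.9 and 55.5 in TBK1-cKD control, 56.5, 64.7 and 67.5 in TBK1-WT IKKe knockout and 52.7, 68.7 and 68.6 in TBK1-WT control. Here the cKD/IKKe-labelled libraries were again below all others, at -0.86 ± 0.10 log2 (adjusted p = 6.92e-07), while the other genotypes overlapped. Tk1 had 3.82, 3.73 and 2.92 CPM in cKD/IKKe-labelled R837 libraries, 5.98, 8.32 and 6.47 in TBK1-cKD control, 6.01, 6.72 and 7.21 in TBK1-WT IKKe knockout and 6.29, 8.15 and 7.40 in TBK1-WT control. Its change was -1.06 ± 0.13 log2 (adjusted p = 1.06e-06). Dut had 1.29, 1.59 and 1.33 CPM in cKD/IKKe-labelled R837 libraries, 1.88, 2.55 and 1.93 in TBK1-cKD control, 1.98, 2.48 and 2.27 in TBK1-WT IKKe knockout and 2.67, 3.29 and 2.83 in TBK1-WT control. Its change was -1.05 ± 0.14 log2 (adjusted p = 4.15e-06), at a level of a few CPM. Cdc6 changed by -1.19 ± 0.19 log2 (adjusted p = 4.7e-05), with 0.870, 0.881 and 1.10 CPM in the cKD/IKKe-labelled libraries and 2.42, 2.00 and 2.11 CPM in TBK1-WT control. Mcm2 changed by -0.73 ± 0.12 log2 (adjusted p = 4.6e-05), with 10.3, 8.91 and 10.5 CPM in the cKD/IKKe-labelled libraries and 17.8, 15.2 and 16.1 CPM in TBK1-WT control. These 6 genes were those of smallest p, and each passed the threshold under every alternative that keeps more than 1 library a group.

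The 2 that rose were regulators, named here after their values were seen. E2f1 had 60.2, 61.4 and 64.4 CPM in cKD/IKKe-labelled R837 libraries and 50.9, 51.7 and 50.8 CPM in TBK1-WT control (0.28 ± 0.056 log2, adjusted p = 0.00047). Ccne1 had 6.58, 6.61 and 7.04 CPM in the cKD/IKKe-labelled libraries and 5.11, 4.67 and 5.85 CPM in TBK1-WT control (0.38 ± 0.11 log2, adjusted p = 0.00863). For both genes the libraries did not overlap in CPM. The steps were smaller in RPKM, which carries no TMM factor. There E2f1 was 14.7 ± 0.856 RPKM in the cKD/IKKe-labelled libraries against 13.9 ± 0.294 in TBK1-WT control, and Ccne1 2.52 ± 0.156 against 2.24 ± 0.235. Fitted on the 6 libraries compared alone, 14 members fell (all genes: 7.5%) and 0 rose (all genes: 9.2%), so E2f1 and Ccne1 were not called there. Without the 2 R837 libraries of high nuclear RNA level, 25 fell (all genes: 16.1%) and 1 rose (all genes: 20.2%). Without replicate 3 of the cKD/IKKe-labelled group 28 fell (all genes: 17.7%) and 2 rose (all genes: 17.9%). The summed neutrophil and precursor markers moved with this comparison (184.6 to 339 RPKM, against 34.7 to 39.5 RPKM in TBK1-WT control), mostly through S100a8, which was 240 RPKM on average against 30.7 RPKM, while Elane and Ly6g were at 0 in both groups. The stromal markers moved the other way (3.98 to 5.16 RPKM, against 8.46 to 11.2 RPKM), as did the progenitor markers (0.408 to 0.578 RPKM, against 1.35 to 1.94 RPKM, with all 6 under 1 RPKM in the first group). Their part in the result was not tested.

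**Figure D3:**
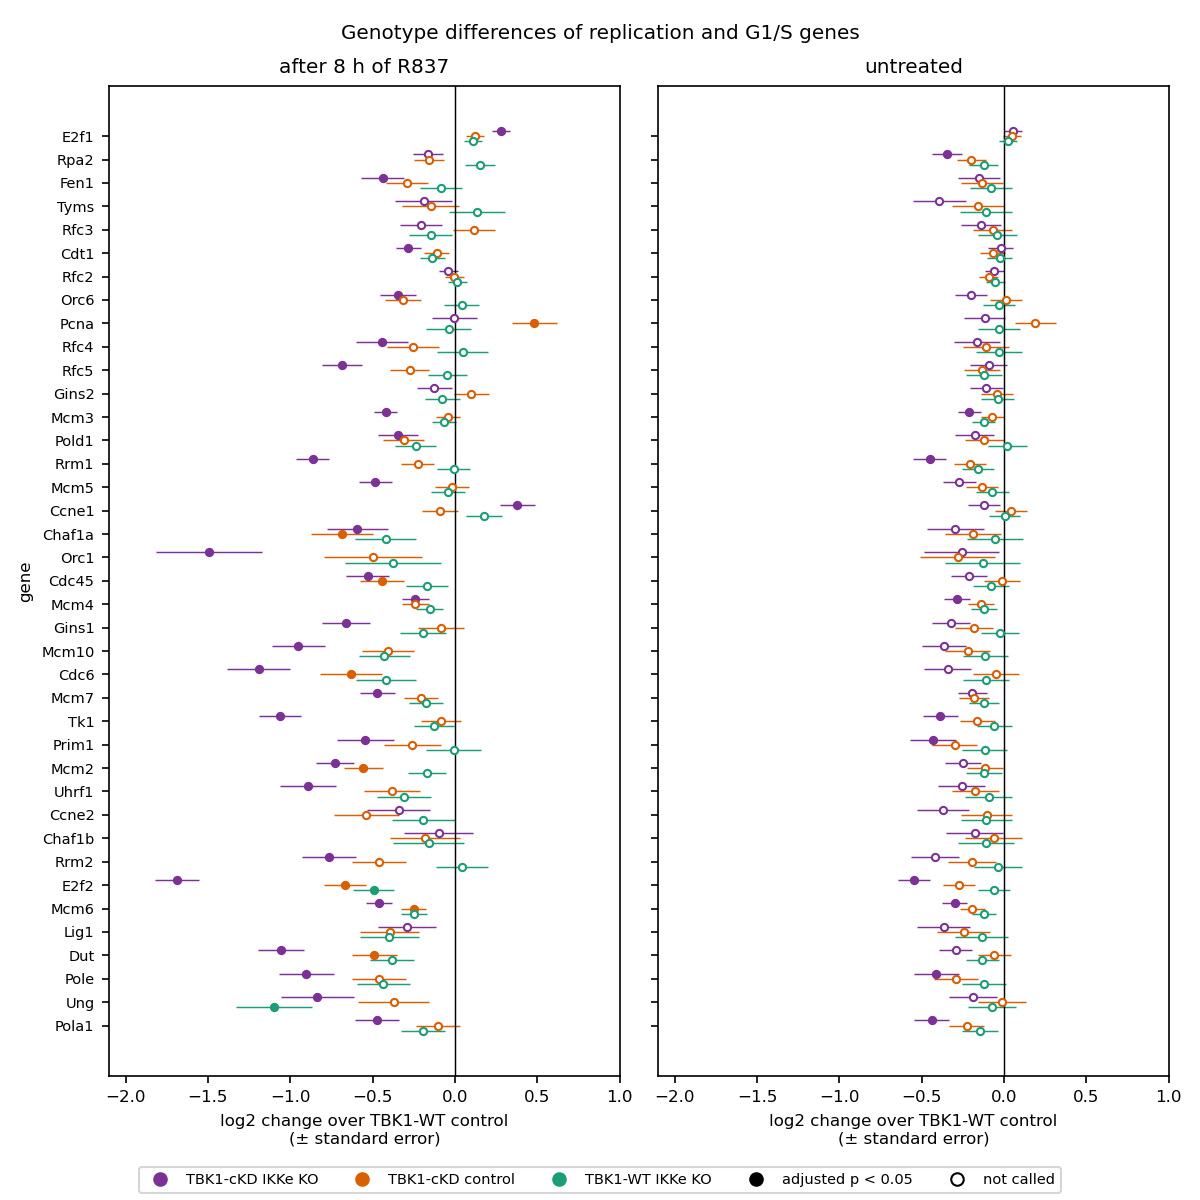
Log2 change of each gene in 3 genotypes over TBK1-WT control, after 8 h of R837 (left) and untreated (right), with the standard error as a bar and filled points for adjusted p under 0.05. After R837 the purple points, the cKD/IKKe-labelled libraries, lie furthest left, at -1.69 for E2f2, and E2f1 and Ccne1 lie to the right of 0; untreated, most points lie within 0.5 of 0.

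The R837 response itself differed between these genotypes for some members. In the test of the difference of the responses, 8 members fell further in the cKD/IKKe-labelled libraries (all genes: 9.96%) and 1 fell less (all genes: 7.38%), against TBK1-WT control. The E2f2 response differed by -1.14 ± 0.17 log2 (adjusted p = 3.7e-05), from responses of -3.82 in the cKD/IKKe-labelled libraries and -2.68 in TBK1-WT control. Untreated, E2f2 already stood at 22.2, 19.3 and 20.1 CPM in the cKD/IKKe-labelled libraries, against 31.0, 29.4 and 29.7 CPM in TBK1-WT control, so the levels were apart before R837 and further apart after it. The difference of the responses was -0.76 ± 0.17 log2 for Dut (adjusted p = 0.00324), -0.68 ± 0.17 for Tk1 (adjusted p = 0.00614), -0.59 ± 0.16 for Rfc5 (adjusted p = 0.0141) and -0.85 ± 0.24 for Cdc6 (adjusted p = 0.0164). Ccne1 went the other way, by 0.50 ± 0.14 log2 (adjusted p = 0.0177). It had 6.58, 6.61 and 7.04 CPM after R837 and 15.3, 15.2 and 16.3 CPM untreated in the cKD/IKKe-labelled libraries, and 5.11, 4.67 and 5.85 CPM after R837 and 16.7, 17.6 and 16.6 CPM untreated in TBK1-WT control. It was thus lower untreated and higher after R837 in the first genotype. Of these, Dut, Rfc5 and Ccne1 missed the threshold under an alternative, with adjusted p up to 0.0886, 0.0506 and 0.0824. With that nuclear level added to the fit, 14 members fell further (all genes: 16.5%) and 2 fell less (all genes: 13.6%). Without cKD/IKKe-labelled replicate 3, 10 fell further (all genes: 11.3%) and 2 less (all genes: 8.49%).

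**Figure D4:**
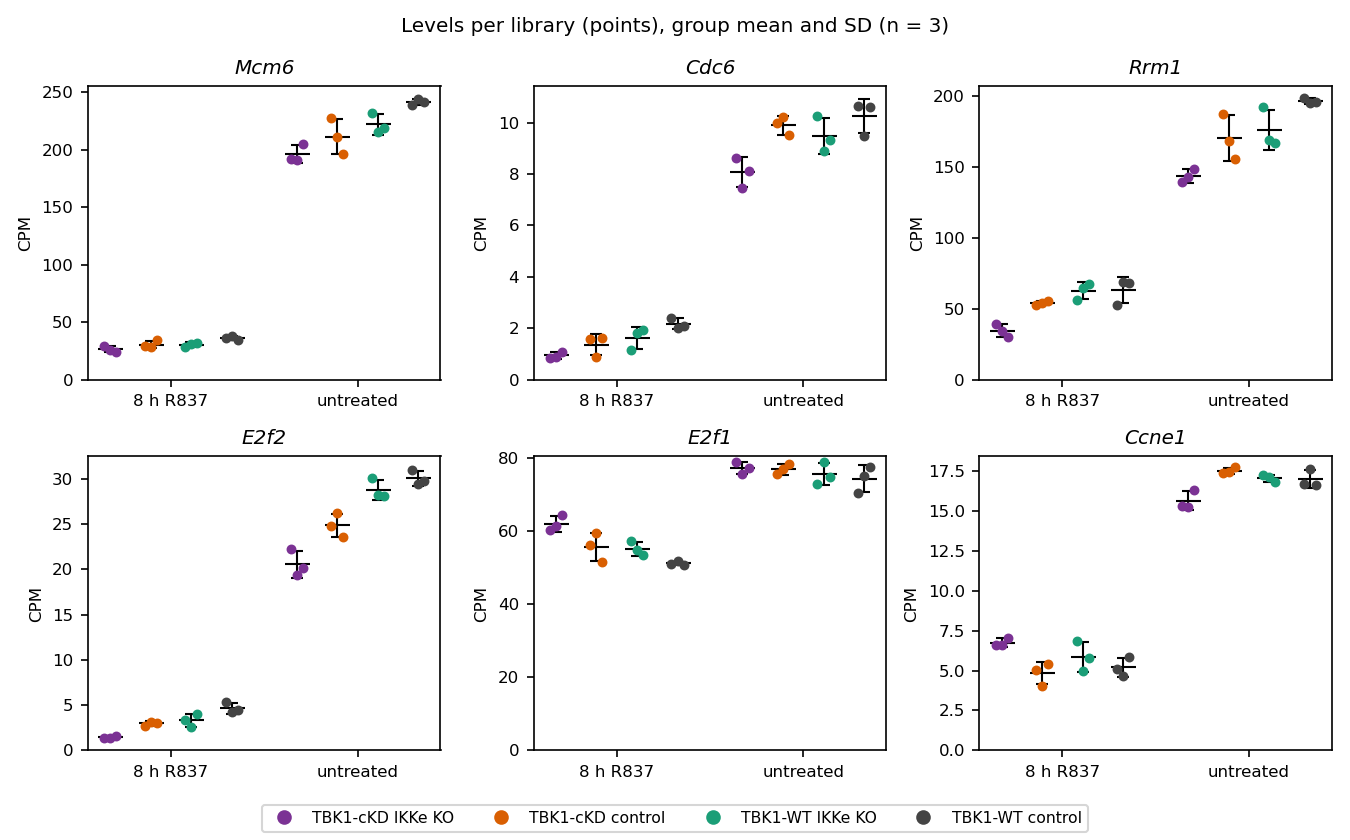
CPM per library (points) with the group mean and SD (bars, 3 libraries) for 6 genes, after R837 on the left and untreated on the right of each panel. E2f2 and Rrm1 step down towards the cKD/IKKe-labelled libraries in both conditions, while E2f1 and Ccne1 are highest in that genotype after R837.

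TBK1-cKD control differed less from TBK1-WT control after R837. There 7 members fell (all genes: 4.41%) and 1 rose (all genes: 4.48%), with a median of -0.26 log2. The 3 libraries were all below those of TBK1-WT control for 11 members (all genes: 10.3%) and all above for 1 (all genes: 10.2%). E2f2 again led, at -0.67 ± 0.13 log2 (adjusted p = 0.00167), with 2.70, 3.16 and 3.07 CPM in TBK1-cKD control and 5.33, 4.21 and 4.46 CPM in TBK1-WT control. Mcm2 changed by -0.56 ± 0.12 log2 (adjusted p = 0.00447), Chaf1a by -0.69 ± 0.19 (adjusted p = 0.0265), Dut by -0.49 ± 0.14 (adjusted p = 0.0284) and Cdc6 by -0.63 ± 0.19 (adjusted p = 0.0381). The gene that rose was Pcna, with 10.7, 18.1 and 11.6 CPM in TBK1-cKD control and 8.59, 10.4 and 9.71 CPM in TBK1-WT control (0.48 ± 0.14 log2, adjusted p = 0.0303). Its high value is replicate 2, the shallow library, without which the change was 0.23 log2 and not called (adjusted p = 0.18). The same library was low for Mcm2, Chaf1a and Cdc6. Without it 5 members fell and 0 rose, and Chaf1a and Cdc6, at -0.52 and -0.45 log2, were not called. Without TBK1-WT control replicate 1, of high nuclear RNA level, 5 fell and 0 rose as well. Over all genes 3.04% fell and 3.28% rose without the shallow library, and 2.75% and 2.52% without that control library. On the 6 libraries compared alone, no member passed (0 of 39), with E2f2 at -0.65 log2 and an adjusted p of 0.326 (range over the alternatives 5.89e-05 to 0.326). The response to R837 did not differ from that of TBK1-WT control by the test for any member (0 of 39, 6 at an unadjusted p under 0.05, and 0 with DESeq2; all genes: 0.204% lower and 0.674% higher), and the largest difference was that of Cdc6, at -0.58 ± 0.23 log2 (adjusted p = 0.366). After R837, markers of other cells moved with the genotype as well. In TBK1-cKD control the stromal markers summed to 5.21 to 6.62 RPKM, against 8.46 to 11.2 RPKM in TBK1-WT control, and the progenitor markers to 1.21 to 1.32 RPKM, against 1.35 to 1.94 RPKM. The neutrophil and precursor markers summed to 44.9 to 72.2 RPKM in TBK1-cKD control, against 34.7 to 39.5 RPKM in TBK1-WT control, and the lymphocyte markers to 19.6 to 20.6 RPKM, against 16.0 to 17.2 RPKM. Their part in the result was not tested.

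TBK1-WT IKKe knockout had the fewest members called against TBK1-WT control after R837. Only Ung and E2f2 fell (2 members, all genes: 0.708%) and 0 rose (all genes: 1.14%). Its 3 libraries were all below for 7 members (all genes: 7.91%) and all above for 2 (all genes: 10.1%). Ung had 0.720, 0.590 and 0.817 CPM in TBK1-WT IKKe knockout and 1.54, 1.68 and 1.35 CPM in TBK1-WT control (-1.10 ± 0.23 log2, adjusted p = 0.0117). E2f2 had 3.31, 2.60 and 4.05 CPM in TBK1-WT IKKe knockout and 5.33, 4.21 and 4.46 CPM in TBK1-WT control (-0.49 ± 0.12 log2, adjusted p = 0.0392). The libraries of neither gene overlapped. Without TBK1-WT IKKe knockout replicate 1 neither was called (adjusted p = 0.0605 for Ung and 0.161 for E2f2), nor without its replicate 2 (0.0819 and 0.246). Without TBK1-WT control replicate 1 or replicate 3 only Ung was called, with E2f2 at an adjusted p of 0.282 and 0.0576. Also, on the 6 libraries compared alone neither was called (adjusted p = 0.165 and 0.557, with lowest values over the alternatives of 0.000688 and 0.00628). The neutrophil and precursor markers moved with this comparison (50.9 to 57.9 RPKM in TBK1-WT IKKe knockout, against 34.7 to 39.5 RPKM in TBK1-WT control), and so did the lymphocyte markers (12.1 to 13.0 RPKM, against 16.0 to 17.2 RPKM). Their part in the result was not tested. No member's response to R837 differed by the test (0 of 39, 3 at an unadjusted p under 0.05, and 1 with DESeq2; all genes: 0.116% lower and 0.129% higher). The largest difference of responses was that of Ung, at -1.03 ± 0.27 log2 (adjusted p = 0.189), which DESeq2 called.

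The interaction asks whether the step from TBK1-cKD control to the cKD/IKKe-labelled libraries differs from the step from TBK1-WT control to TBK1-WT IKKe knockout. After R837, 4 members had a negative interaction (all genes: 8.9%) and 0 a positive one (all genes: 13.3%), so the members' share was near or below that of all genes. They were Tk1 at -0.85 ± 0.18 log2 (adjusted p = 0.00223), Rrm1 at -0.63 ± 0.14 (adjusted p = 0.00393), Mcm3 at -0.31 ± 0.10 (adjusted p = 0.0326) and Mcm5 at -0.42 ± 0.14 (adjusted p = 0.041). Mcm5 had 35.8, 32.1 and 26.3 CPM in cKD/IKKe-labelled R837 libraries, 39.6, 50.5 and 40.1 in TBK1-cKD control, 39.4, 42.0 and 46.3 in TBK1-WT IKKe knockout and 40.6, 46.4 and 44.6 in TBK1-WT control, so the first group was below all the others, which overlapped. All 4 genes are lower in libraries of high nuclear RNA level, as set out below. With that level added to the fit, Mcm3 and Mcm5 were not called, at -0.19 and -0.25 log2 (adjusted p up to 0.181 and 0.225 over the alternatives). Tk1 missed the threshold on the 12 R837 libraries alone (-0.87 log2, adjusted p = 0.0566, the highest over its alternatives, lowest 0.000145). Untreated, no member had an interaction (0 of 39, 0 at an unadjusted p under 0.05, and 0 with DESeq2; all genes: 1.08% lower and 3.61% higher), and the largest was Pcna at -0.28 ± 0.18 log2 (adjusted p = 0.699).

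In untreated cells the mean summed level of the 39 genes had the same order of genotypes as after R837. The median step from TBK1-WT control was smaller than after R837 in each genotype. With the settings used throughout, only the cKD/IKKe-labelled libraries had members called. In the cKD/IKKe-labelled libraries 10 members fell against TBK1-WT control (all genes: 5.1%) and 0 rose (all genes: 8.52%), with a median of -0.26 log2. They were 3 subunits of the MCM ring, 4 polymerase and lagging-strand genes, 2 genes of nucleotide supply and E2f2. The 3 libraries were all below those of TBK1-WT control for 34 of the 39 genes (all genes: 22.2%) and all above for 0 (all genes: 25%), and their mean was the lowest of the 4 genotypes for 34 (all genes: 32%). E2f2 had 22.2, 19.3 and 20.1 CPM in cKD/IKKe-labelled untreated libraries, 24.8, 26.2 and 23.6 in TBK1-cKD control, 30.0, 28.2 and 28.1 in TBK1-WT IKKe knockout and 31.0, 29.4 and 29.7 in TBK1-WT control. The first group was below all the others (-0.55 ± 0.099 log2 from TBK1-WT control, adjusted p = 0.000433). Rrm1 had 139, 143 and 149 CPM in cKD/IKKe-labelled untreated libraries, 187, 168 and 156 in TBK1-cKD control, 192, 169 and 167 in TBK1-WT IKKe knockout and 199, 195 and 196 in TBK1-WT control, again with the first group below all the others (-0.45 ± 0.098 log2, adjusted p = 0.0026). Pola1 had 40.8, 39.9 and 41.6 CPM in cKD/IKKe-labelled untreated libraries, 51.4, 45.3 and 44.9 in TBK1-cKD control, 52.3, 48.3 and 49.3 in TBK1-WT IKKe knockout and 56.2, 56.5 and 53.2 in TBK1-WT control (-0.44 ± 0.11 log2, adjusted p = 0.00704). Mcm6 changed by -0.30 ± 0.074 log2 (adjusted p = 0.00771), Rpa2 by -0.35 ± 0.089 (adjusted p = 0.00987) and Tk1 by -0.39 ± 0.11 (adjusted p = 0.016). Each of these is a small step, E2f2 keeping 68.4% and Mcm6 81.2% of the level in TBK1-WT control. Rpa2 and Tk1 missed the threshold when 1 library was left out, with adjusted p up to 0.0511 without replicate 3 and 0.0677 without replicate 2 of the cKD/IKKe-labelled group (lowest 2.39e-06 and 7.49e-07 over the alternatives).

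The count of calls in untreated cells differed between settings, for the members and for all genes. It was 31 on the 6 libraries compared alone (all genes: 18% fell), 28 on the 14 libraries of high nuclear RNA level (15.9%), 22 with that level added to the fit (10.8%), 18 with DESeq2 (7.19%) and 6 or 7 with 1 library left out (3.28% to 3.94%). Every call on a member was a fall. In untreated TBK1-cKD control no member was called against TBK1-WT control (0 of 39; all genes: 2.65% fell and 2.4% rose), with a median of -0.13 log2. At an unadjusted p under 0.05 there were 7 members (all genes: 15.1%). In other settings the count of members called was 1 with DESeq2 (all genes: 7.6%), 6 with the nuclear level added to the fit (13.9%), 11 on libraries of high level (20.5%) and 15 on the 6 libraries compared alone (19.3%), and 1 call in each of the last 2 was a rise. The 3 libraries were all lower for 21 members (all genes: 17.4%) and all higher for 1 (all genes: 17.5%). The member of largest change was Prim1, at -0.30 ± 0.14 log2 (adjusted p = 0.305), which was called on the 6 libraries compared alone and on the libraries of high nuclear RNA level. In untreated TBK1-WT IKKe knockout no member was called (0 of 39, 0 at an unadjusted p under 0.05, and 0 with DESeq2) and no gene in all (0%, 422 genes at an unadjusted p under 0.05). The 3 libraries were all lower for 5 members (all genes: 7.9%) and all higher for 0 (all genes: 8.28%). The largest change there was Rrm1 at -0.16 ± 0.098 log2 (adjusted p = 1). Markers of other cells moved with these genotypes in untreated cells. The 7 stromal markers summed to 3.87 to 5.31 RPKM in the cKD/IKKe-labelled libraries, 6.24 to 7.70 in TBK1-cKD control, 9.70 to 13.0 in TBK1-WT IKKe knockout and 11.0 to 12.8 in TBK1-WT control. The 6 progenitor markers summed to 6.85 to 7.72 RPKM in the cKD/IKKe-labelled libraries, 9.65 to 11.4 in TBK1-cKD control, 10.6 to 11.9 in TBK1-WT IKKe knockout and 11.8 to 12.4 in TBK1-WT control. The 10 neutrophil and precursor markers summed to 2.32 to 3.13 RPKM in the cKD/IKKe-labelled libraries, 2.29 to 3.35 in TBK1-cKD control, 7.19 to 8.37 in TBK1-WT IKKe knockout and 8.18 to 11.4 in TBK1-WT control. Their part in the result was not tested.

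Members also split by the nuclear RNA level of the library, within genotype and treatment. Fitted as a term beside the 8 groups, a high level went with higher values of 8 members (all genes: 25.7%) and lower values of 7 (all genes: 24.8%). Shares of that size are no more than those of all genes. The members that were higher were Lig1 at 0.67 ± 0.10 log2, Chaf1a at 0.66 ± 0.11, Pole at 0.64 ± 0.099, Mcm10 at 0.58 ± 0.11, Pold1 at 0.44 ± 0.080, Uhrf1 at 0.37 ± 0.15, Pola1 at 0.34 ± 0.12 and Cdc45 at 0.30 ± 0.13. Those that were lower were Tyms at -0.64 ± 0.12, Rrm2 at -0.59 ± 0.11, Rfc5 at -0.36 ± 0.10, Tk1 at -0.33 ± 0.12, Rrm1 at -0.33 ± 0.075, Mcm5 at -0.26 ± 0.085 and Mcm3 at -0.19 ± 0.059. E2f1 and Ccne1, at 0.04 ± 0.052 and 0.04 ± 0.11, were not called. Compared within their groups, the 2 R837 libraries of high level departed from the other replicates in the same direction for 33 of the 39 genes (19 higher in both, 14 lower in both). These are the same 2 libraries that set the term, so the count describes them and tests nothing. For R837 TBK1-WT control, Lig1 had 16.3, 9.10 and 10.0 CPM and Rrm2 9.25, 13.6 and 14.2 CPM in replicates 1, 2 and 3, of which replicate 1 is of high level.

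**Figure D5:**
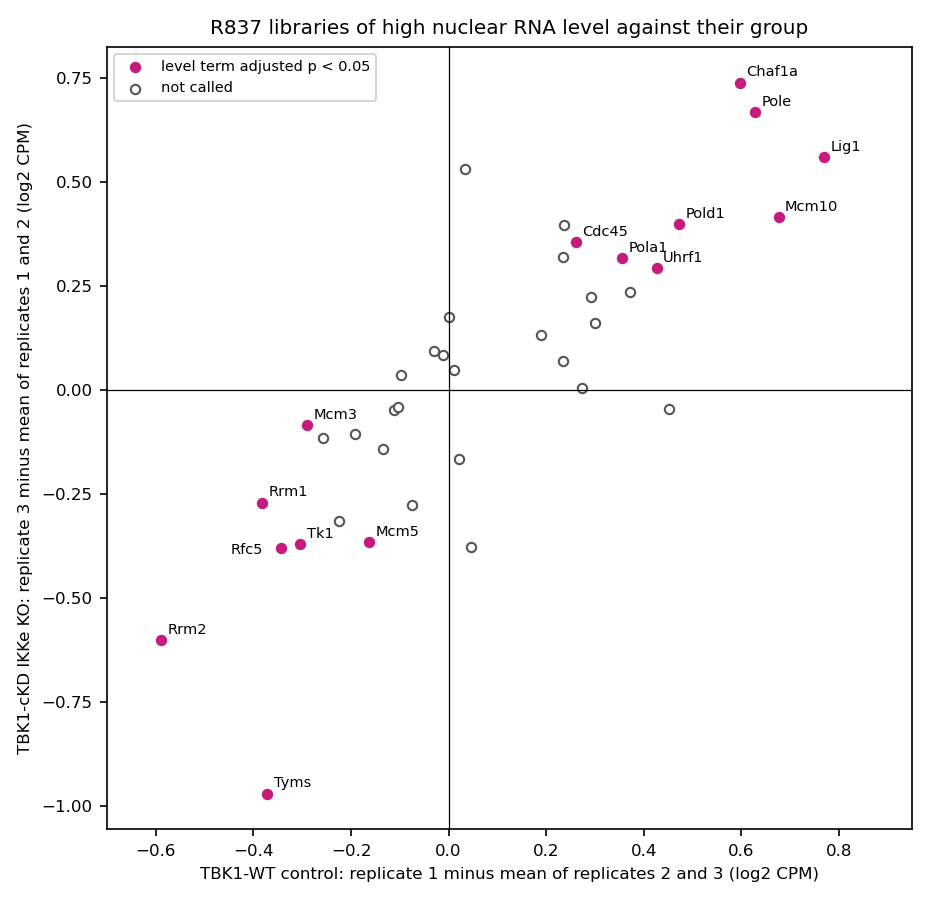
For each gene, the log2 CPM of the R837 library of high nuclear RNA level minus the mean of the other 2 libraries of its group, in TBK1-WT control (horizontal) and in the cKD/IKKe-labelled group (vertical); filled points have an adjusted p under 0.05 for the level term. Most points lie in the upper right (Lig1, Chaf1a, Pole) or lower left (Tyms, Rrm2), in the same direction in both groups.

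Other genes of the cycle set the 39 in context. Of 50 other replication genes, 39 fell and 7 rose after R837 in the cKD/IKKe-labelled libraries, 40 and 7 in TBK1-cKD control, 40 and 9 in TBK1-WT IKKe knockout and 40 and 7 in TBK1-WT control. Over all genes, 32% to 37.8% fell and 30.6% to 32.4% rose in these genotypes. This wider list thus did not move in 1 direction as the 39 did. Both lists were chosen with earlier results of these data known, so the contrast between them tests nothing. The largest falls of the wider list in TBK1-WT control were E2f7 at -3.41 ± 0.20 log2 and E2f8 at -2.94 ± 0.12, which encode repressors of the E2F family, and Clspn at -3.14 ± 0.32, a checkpoint protein of the fork. The largest rises were Pole4 at 0.87 ± 0.13, Pold4 at 0.47 ± 0.066, both small polymerase subunits, and E2f3 at 0.43 ± 0.058, an activator like E2f1. All 30 mitosis genes fell in each genotype, with medians of -3.02 log2 in the cKD/IKKe-labelled libraries, -2.17 in TBK1-cKD control, -1.96 in TBK1-WT IKKe knockout and -1.84 in TBK1-WT control. The largest falls in TBK1-WT control were Cenpf at -3.32 ± 0.43 log2, Mki67 at -3.07 ± 0.65 and Cenpe at -2.96 ± 0.51. Of 21 G1 control genes, 11 fell and 8 rose in the cKD/IKKe-labelled libraries, 14 and 5 in TBK1-cKD control, 13 and 4 in TBK1-WT IKKe knockout and 12 and 6 in TBK1-WT control. The cyclin D genes went both ways: in TBK1-WT control Ccnd1 changed by -2.74 ± 0.075 log2 and Ccnd3 by 1.45 ± 0.094. Cdk6, their kinase, changed by -1.71 ± 0.11 and the kinase inhibitor gene Cdkn2c by -1.53 ± 0.12. The inhibitor gene Cdkn1a rose by 0.62 ± 0.087 log2, and Max, the partner of Myc, by 0.58 ± 0.064. In the cKD/IKKe-labelled libraries, the same genes changed by -4.68 (Ccnd1), 1.63 (Ccnd3), -1.84 (Cdk6), -3.08 (Cdkn2c), 1.53 (Cdkn1a) and 0.74 (Max).

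The mitosis genes had larger median differences between genotypes than the 39. After R837, 29 of 30 fell in the cKD/IKKe-labelled libraries against TBK1-WT control (all genes: 15.5%), with a median of -1.67 log2 (the 39: -0.47). In TBK1-cKD control 25 of 30 fell (all genes: 4.41%), with a median of -0.67 (the 39: -0.26). Untreated, 25 of 30 fell in the cKD/IKKe-labelled libraries (all genes: 5.1%), with a median of -0.62 (the 39: -0.26). The response to R837 was more negative there than in TBK1-WT control for 25 of 30 mitosis genes and for 8 of the 39 (all genes: 9.96%). The part of the nuclear RNA level in these differences of the mitosis genes was not tested. These comparisons share the TBK1-WT control libraries, and the lists were not tested against each other.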

How the data were processed

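RNA was sequenced as 50 bp single-end reads from an unstranded TruSeq library, per the labels' protocols, so overlapping or antisense genes cannot be told apart. The deposited files give, per gene, raw counts and RPKM made by the authors; the submitters' processing notes name GSNAP and GRCm38, and how reads were counted, and on which annotation release, is not given in the sources used here. Counts went into edgeR 4.0.16 (R 4.3.3): filterByExpr (minimum 10, total 15), TMM scaling, and the quasi-likelihood test on all 24 libraries in 8 groups of 3 with 16 residual degrees of freedom. P values were adjusted by Benjamini-Hochberg over 14681 genes, at a threshold of 0.05. The standard error is the size of the log2 change over the square root of F. RPKM was used only to compare levels between genes, to sum markers and to set E2f1 and Ccne1 beside their CPM. Genes without a symbol (233 of 52636) held 0.0187% of counts. The fit was tested on simulated data. No pair of replicates agreed within sampling noise (lowest chi-square per gene 1.929). Where libraries come from separate mice is taken from the protocol text; if not, p values measure the spread between samples only.

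Alternatives were DESeq2 1.42.0, RLE size factors, no count filter, the nuclear RNA level as a term, libraries of high level only, the compared groups only, and leaving out each library; leaving out both R837 libraries of high level was added after seeing the data. The 39 members and the other lists were chosen with earlier results of these data known. In the R837 responses all members could be named, with library values for the largest and smallest change per role, MCM2-7 and the G1/S regulators; elsewhere at most the 6 called members of smallest p were named or, with none called, the one of largest change; of other lists, the 3 largest falls and rises in TBK1-WT control. Replicate numbers follow the order of the records and pair nothing.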

Additional observations from a re-analysis of the deposited data

Results flagged for a closer look

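The responses to R837 of 9 members, of 39, differed by test between the cKD/IKKe-labelled libraries and TBK1-WT control (edgeR's quasi-likelihood test, adjusted p under 0.05). Over all genes 17.3% did. Of the members, 8 differences were negative (all genes: 9.96%) and 1 was positive (all genes: 7.38%). The members' share was not tested against that of all genes. The difference of the log2 responses was -1.14 for E2f2, -0.76 for Dut, -0.68 for Tk1, -0.59 for Rfc5, -0.85 for Cdc6 and 0.50 for Ccne1.

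After R837, 4 members differed by test in how far IKKe knockout moved them in TBK1-cKD and in TBK1-WT cells, as the libraries are labelled. Over all genes 22.2% differed, 8.9% in the negative direction of the 4 members. The members' share is thus near that of all genes in this direction and below it over both directions. The difference was -0.85 log2 for Tk1, -0.63 for Rrm1, -0.31 for Mcm3 and -0.42 for Mcm5. One of the 3 cKD/IKKe-labelled R837 libraries, replicate 3, had the Ikbke level of TBK1-cKD control and is also the library of high nuclear RNA level in that group. Without it 2 of the 4 were called.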

How the results depend on the processing

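All 39 falls after R837 in each genotype held under every alternative that keeps more than 1 R837 library a group, and no named change reversed. The setting on libraries of high nuclear level left 1 R837 library each in the cKD/IKKe-labelled and TBK1-WT control groups, so its calls on these falls are not counted. It could not be run for the R837 responses of TBK1-cKD control and TBK1-WT IKKe knockout. The other counts of members called moved as follows. For cKD/IKKe-labelled untreated libraries against TBK1-WT control, 10 became 22 with the nuclear level added to the fit, 28 on libraries of high level, 31 on the groups compared alone, 18 with DESeq2 and 6 to 7 with 1 library left out. For untreated TBK1-cKD control, 0 became 6, 11, 15 and 1 under the first 4 of these. After R837, the 30 called in the cKD/IKKe-labelled libraries became 14 on the groups compared alone. The 8 in TBK1-cKD control became 4 with no count filter, 0 on the groups alone and 5 to 9 with 1 library left out. The 2 in TBK1-WT IKKe knockout became 1 with no filter, 0 on the groups alone, 0 to 2 with 1 library left out, and 1 without the R837 libraries of high level. The 9 differences of the response became 16 with that level added (6 to 12 with 1 library left out). The response difference of TBK1-WT IKKe knockout gave 1 with DESeq2, the untreated interaction 1 on libraries of high level and 1 on the untreated groups alone, and the 4 R837 interactions 1 on the R837 groups alone and 2 to 6 with 1 library left out. The causes were not tested.

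No paired analysis was possible because the labels give no replicate numbers shared between groups. Members at few reads, such as Orc1 after R837, are limited by depth.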
